A study of Mus musculus with 12 samples.

Results

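Vaults are large ribonucleoprotein particles of the cytoplasm. Their barrel is built from many copies of the major vault protein, encoded by Mvp, and the particle also carries telomerase-associated protein 1 (Tep1), which holds the vault RNA, and Parp4, the vault member of the poly(ADP-ribose) polymerase family. Vaults are found in most animal cells, and MVP has been described as a gene that answers interferon-γ (IFN-γ), but what the particle does is not settled. The genes described here are these 3 protein components, Mvp, Tep1 and Parp4, which are 3 of the 15002 genes listed in the data. They were chosen by gene symbol, and the set was selected on a result of the study: Mvp is on its list of genes that were lower with Nostrill siRNA plus IFN-γ. The value of Mvp in that comparison, its interaction with IFN-γ, and the IFN-γ effect within each siRNA, which shares libraries with it, are therefore given as a description with no test.

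RNA had been sequenced from IEC4.1 cells, a mouse intestinal epithelial line that the labels give as wild type, in 4 groups of 3 libraries. One pair of groups carried scrambled siRNA as control (siR_Ctrl), the other a mixture of 3 duplexes directed at the long noncoding RNA Nostrill (siR_Nostrill). In each pair, one group had no IFN-γ and the other 1 ng/ml of it for 4 h, while the labels give 24 h for every library. All 4 groups are therefore siRNA-transfected cells of a single line, and no untransfected cells were analysed here. Nostrill itself was not analysed here, so its knockdown was not used to check the labels. Each library held 17824306 to 19093204 reads on listed genes. The labelled cell type was not borne out by its markers. Of 12 markers of intestinal epithelium, 7 were in the tables, and Krt19 was the highest of them at group means of 1.35 to 2.06 FPKM (fragments scaled by transcript length and by the mapped reads of the library), while Krt8, Krt18 and Vil1 stayed under 0.22 FPKM and Cdx2 was listed at 0 in 3 of the 4 groups. Of 9 mesenchymal markers, Vim was the highest at 1596 to 1997 FPKM, followed by Col1a1 at 212 to 257 FPKM. Pdgfra, Pdgfrb and Dcn were at 11.3 to 19.5 FPKM, and Lum was at only 0.19 to 0.21 FPKM. Cd34, which is on the list of endothelial markers, was at 409 to 578 FPKM. Of the same list, Pecam1 stayed at or under 0.067 FPKM and Cdh5 at or under 0.037 FPKM, while Kdr and Tek were not among the listed genes. Of the leukocyte markers, Ptprc stayed at or under 0.003 FPKM, while Cd14 was at 15.96 to 18.5 FPKM and Cd68 at 1.32 to 2.00 FPKM. The response to the cytokine was present in the libraries labelled with it: Irf1, a transcription factor induced by interferon, was at 50.9 FPKM in siR_Ctrl and 578 FPKM in siR_Ctrl + IFN-γ cells, and at 57.3 and 543 FPKM in the siR_Nostrill pair.

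Mvp lies on the minus strand of chromosome 7 (chr7:126986860-127014594 of GRCm38.p6, RefSeq). Tep1 and Parp4 both lie on chromosome 14, Tep1 on the minus strand (chr14:50824059-50870579) and Parp4 on the plus strand (chr14:56575619-56659798). Their longest coding transcripts in GENCODE vM21 differ in size. That of Mvp has 15 exons and 2837 nt, that of Tep1 has 55 exons and 8171 nt, and that of Parp4 has 35 exons and 6387 nt. The length behind the FPKM values was 2574 nt for Mvp, 7924 nt for Tep1 and 6159 nt for Parp4, so Mvp was near the middle of all listed genes (percentile 50.2) while Tep1 and Parp4 were among the longest (percentiles 96.1 and 91.2). This matters below, because libraries differed in how they recovered long transcripts. Noncoding genes of RefSeq overlap Tep1 (Gm52116 and Gm26782) and Parp4 (Gm16573), and without a stated strand setting their reads cannot be told apart from those of these genes. No annotated gene overlaps Mvp.

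The 250 bases before the start of Mvp and Parp4 are shown because IFN-γ acts on promoters, at gamma-activated sites (GAS) and, through factors that it induces, at interferon-stimulated response elements (ISRE). Sequences are from RefSeq (GRCm38.p6) and are written 5′ to 3′ in the direction of the gene. Capitals mark matches to GAAANNGAAA, the repeated core of an ISRE, searched on both strands, or to TTCNNNGAA, the GAS core, which reads the same on both.

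Mvp, chr7:127014595-127014844, minus strand: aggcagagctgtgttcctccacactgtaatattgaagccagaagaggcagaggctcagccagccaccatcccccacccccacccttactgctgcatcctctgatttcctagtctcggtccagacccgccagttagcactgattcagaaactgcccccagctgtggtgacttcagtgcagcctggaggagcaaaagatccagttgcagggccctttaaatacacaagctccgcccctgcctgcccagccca

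Parp4, chr14:56575369-56575618, plus strand: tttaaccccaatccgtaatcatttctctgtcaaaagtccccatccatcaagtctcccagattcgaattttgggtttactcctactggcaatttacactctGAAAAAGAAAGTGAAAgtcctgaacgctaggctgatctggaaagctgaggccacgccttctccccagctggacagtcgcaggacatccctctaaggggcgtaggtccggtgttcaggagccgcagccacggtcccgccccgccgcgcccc

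Parp4 held 2 overlapping matches to the ISRE core on its own strand, GAAAAAGAAA from -150 to -141 and GAAAGTGAAA from -144 to -135 relative to its start (chr14:56575469-56575478 and chr14:56575475-56575484). Neither window held the GAS core, and that of Mvp held no ISRE core, so it has no capitals. Among 32851 promoters of the RefSeq table, 2.98% held the ISRE core and 7.02% the GAS core in a window of the same length. A match is a description of the letters only, and its absence says nothing of sites elsewhere.

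The guide strands of the siRNA pool are shown because a seed (bases 2 to 8, in capitals) that pairs with a transcript other than the target can also lower that transcript. They are the antisense strands of the duplexes, written 5′ to 3′.

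Nostrill-1: aUUAAUGCuucuucccagg

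Nostrill-2: aUUUGUGUguuccuggugg

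Nostrill-3: aUUAGAACgacuuauaggc

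In the same GENCODE transcripts, Mvp held no site for any of the 3 seeds. Tep1 and Parp4 each held 1 site, GCAUUAA, for the seed of Nostrill-1, and both sites were in coding sequence. The Tep1 site is in exon 40 (chr14:50836330-50836336) and the Parp4 site in exon 13 (chr14:56602269-56602275). Among 11616 tested genes with a coding transcript, 13.2% held this site and 40.8% held a site for any of the 3 seeds.

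Mvp was the member with by far the most RNA in each group. Averaged over the 12 libraries, Mvp was at 45.0 FPKM (percentile 84.6 of all listed genes), Tep1 at 4.24 FPKM (percentile 42.8) and Parp4 at 2.69 FPKM (percentile 37.6). FPKM is per transcript length, so these levels can be set beside each other. The order Mvp, Tep1, Parp4 held in each of the 12 libraries. Counts behind them were 1434 to 3138 reads for Mvp, 467 to 838 for Tep1 and 157 to 466 for Parp4, so Parp4 carries the largest counting error.

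**Figure D1:**
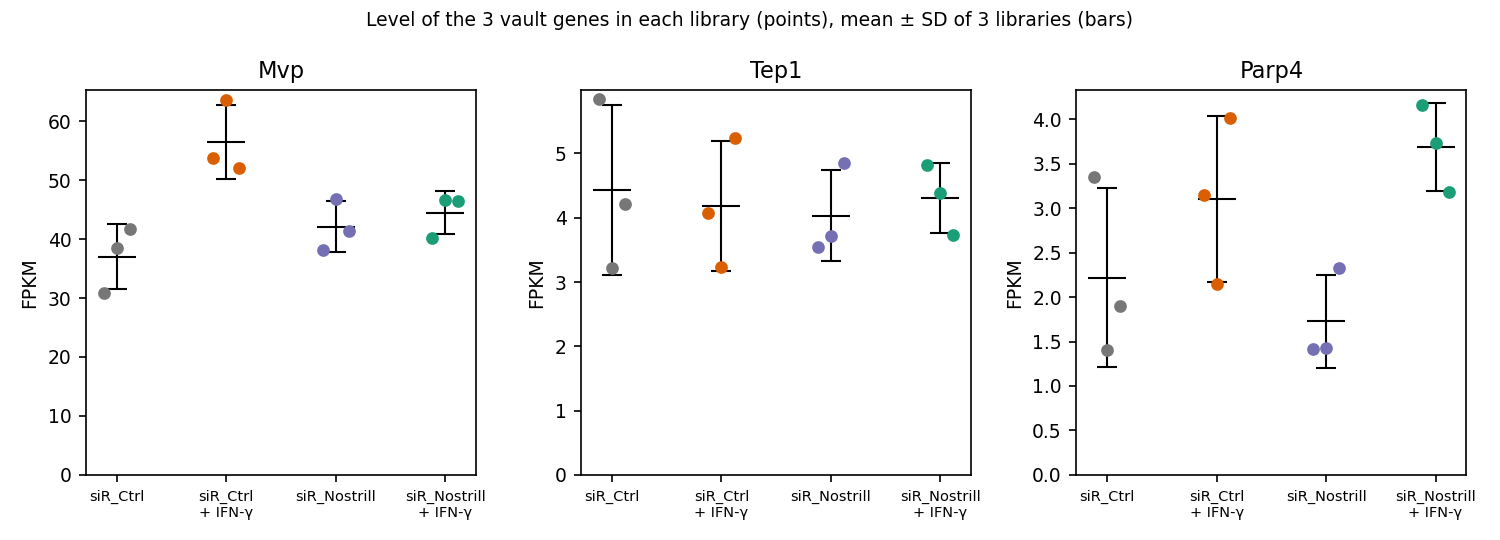
FPKM of Mvp, Tep1 and Parp4 (vertical axes, from 0) in the 12 libraries, by group. Points are libraries and bars are the mean ± SD of 3. The 3 siR_Ctrl + IFN-γ libraries are the highest for Mvp, at 52.0 to 63.7 FPKM, and the groups overlap throughout for Tep1. For Mvp, the gap to siR_Nostrill + IFN-γ is the difference that chose the gene.

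Mvp, the shell protein gene, was highest in siR_Ctrl cells given IFN-γ. Its level in replicates 1 to 3 was 30.9, 38.5 and 41.6 FPKM in siR_Ctrl cells and 53.8, 63.7 and 52.0 FPKM in siR_Ctrl + IFN-γ cells. It was 38.2, 46.9 and 41.3 FPKM in siR_Nostrill cells and 40.3, 46.7 and 46.5 FPKM in siR_Nostrill + IFN-γ cells. All 3 siR_Ctrl + IFN-γ libraries thus lay above the other 9, and the other groups overlapped one another. The gap to siR_Nostrill + IFN-γ is the difference that chose the gene, and the share of genes with this pattern was not counted. The order of the group means was siR_Ctrl (37.0 ± 5.52 FPKM, SD, n = 3), siR_Nostrill (42.1 ± 4.39), siR_Nostrill + IFN-γ (44.5 ± 3.67) and siR_Ctrl + IFN-γ (56.5 ± 6.28). Neighbours among the lowest 3 of these means differed by no more than the larger of their SDs.

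By edgeR's fit over all 12 libraries, IFN-γ-treated siR_Ctrl cells held 1.60-fold more Mvp (log2 fold change 0.68 ± 0.16, SE) than untreated ones, and siR_Nostrill cells 1.04-fold more (0.06 ± 0.16, or 0.0014 to 0.16 with 1 library left out). With IFN-γ present, siR_Nostrill cells had a log2 difference of -0.41 ± 0.16 from siR_Ctrl cells, which is the value that chose the gene, and the difference between its IFN-γ effects was -0.63 ± 0.22, or -0.30 both by limma on TPM and with each library's TPM-to-FPKM ratio as a covariate. The difference with IFN-γ present ran from -0.50 (without replicate 3 of siR_Ctrl + IFN-γ) to -0.26 (without replicate 2) when 1 library was left out. In siR_Ctrl cells the 3 IFN-γ libraries being above the other 3 in FPKM was true of 7.5% of the 11900 genes tested. The scale mattered for the siR_Nostrill pair. TPM rescales each library to the same total. On TPM, Mvp was at 50.7, 59.7 and 60.7 in siR_Nostrill and at 62.2, 70.7 and 66.6 in siR_Nostrill + IFN-γ libraries. The 3 IFN-γ libraries thus lay above the other 3, as was true of 20.3% of genes in that pair. The log2 fold change of Mvp in that pair was then 0.22 by limma on TPM, and 0.26 with each library's TPM-to-FPKM ratio as covariate. With IFN-γ present, mean TPM was 79.8 ± 2.35 (SD, n = 3) in siR_Ctrl and 66.5 ± 4.27 in siR_Nostrill cells. That is a smaller log2 difference than the -0.41 from edgeR.

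The IFN-γ effect averaged over both siRNAs takes the sum of the IFN-γ groups, in which the difference that chose Mvp cancels, although it uses the libraries of that difference. It was a log2 fold change of 0.37 ± 0.11 (1.29-fold, approximate 95% interval 1.09 to 1.53), and its adjusted p was 0.0663 by edgeR's quasi-likelihood test, above the threshold of 0.05. Over 12 alternative fits the adjusted p ranged from 1.22e-06 to 0.0693 and passed in 9, DESeq2 among them at 0.0271, with a log2 fold change from 0.34 to 0.41. It passed in 0 of the 12 fits that left out 1 library (adjusted p from 0.0520 to 0.151 by edgeR). Without IFN-γ, Mvp differed by 0.21 ± 0.16 between siR_Nostrill and siR_Ctrl cells (1.16-fold, interval 0.911 to 1.47, adjusted p = 0.463 by edgeR). The libraries that chose Mvp are not compared here, but they enter the SE and p through the fit over all 12. With only the compared groups fitted, the difference was 0.21 ± 0.16 (adjusted p = 0.511 by edgeR). It was 0.036 by limma on TPM, 0.0078 with each library's TPM-to-FPKM ratio as covariate and 0.076 without replicate 1 of siR_Ctrl. In that comparison 0.218% of genes were called in either direction.

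Tep1, the gene of the protein that carries the vault RNA and also binds telomerase RNA, showed no change that passed the test. It was at 5.85, 3.22 and 4.22 FPKM in siR_Ctrl cells and at 4.07, 3.23 and 5.24 FPKM in siR_Ctrl + IFN-γ cells. In siR_Nostrill cells it was at 3.54, 3.71 and 4.85 FPKM, and with IFN-γ at 4.82, 4.38 and 3.73 FPKM. The 4 groups overlapped, and their means ran only from 4.03 ± 0.712 FPKM (siR_Nostrill) to 4.43 ± 1.33 FPKM (siR_Ctrl), closer than the spread within a group.

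The log2 fold change of Tep1 with IFN-γ was -0.02 ± 0.19 in siR_Ctrl cells and 0.08 ± 0.19 in siR_Nostrill cells (adjusted p = 0.976 and 0.822 by edgeR). The average of the 2 was 0.03 ± 0.14, with an interval of 0.830-fold to 1.26-fold. Its difference between siR_Nostrill and siR_Ctrl cells was -0.11 ± 0.19 without and -0.01 ± 0.19 with IFN-γ (adjusted p = 0.751 and 0.981), and the interaction was 0.09 ± 0.27 (adjusted p = 0.848). Tep1 was called in none of the alternatives run for these comparisons, and the direction of these small values turned in some of them.

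Parp4, the enzyme of the particle, was higher with IFN-γ. Its level was 3.35, 1.41 and 1.90 FPKM in siR_Ctrl cells and 3.15, 2.15 and 4.01 FPKM in siR_Ctrl + IFN-γ cells, which overlap because replicate 1 of siR_Ctrl was high. In siR_Nostrill cells it was at 1.42, 1.43 and 2.33 FPKM, and with IFN-γ at 4.16, 3.73 and 3.18 FPKM. The 3 IFN-γ libraries thus lay above the other 3, as was true of 16.3% of genes in that pair. From lowest to highest, group means were 1.73 ± 0.523 (siR_Nostrill), 2.22 ± 1.01 (siR_Ctrl), 3.10 ± 0.931 (siR_Ctrl + IFN-γ) and 3.69 ± 0.491 FPKM (siR_Nostrill + IFN-γ), and neighbours in this order differed by no more than the larger of their SDs.

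Averaged over both siRNAs, the log2 fold change of Parp4 with IFN-γ was 0.81 ± 0.20 (1.76-fold, interval 1.30 to 2.39, adjusted p = 0.0239 by edgeR), and 6.81% of genes were called higher in this comparison. In siR_Nostrill cells it was 1.08 ± 0.29 (2.11-fold, adjusted p = 0.0454 by edgeR), where 5.24% of genes were called higher. The call of the mean held in 10 of 12 alternatives and without 5 of the 12 libraries in turn, and that in siR_Nostrill cells in 9 of 13 and without 5 of 12. With the covariate the latter was 0.70, the lowest of its alternatives, and was called. In siR_Ctrl cells it was 0.55 ± 0.28 (1.46-fold, interval 0.953 to 2.25, adjusted p = 0.426 by edgeR), where 4.71% of genes were called higher, and with the length trend removed it was 0.70 with an adjusted p of 0.00168, in a fit that called 8.09% of genes higher. It ran from 0.33 (without replicate 2 of siR_Ctrl) to 0.94 (without replicate 1 of siR_Ctrl, adjusted p = 0.0557 by edgeR) when 1 library was left out. The interaction was 0.53 ± 0.40 (adjusted p = 0.469 by edgeR), so the IFN-γ effects were not shown to differ between the siRNAs, and it was 0.17 with the length trend removed (adjusted p = 0.608). Between siR_Nostrill and siR_Ctrl cells Parp4 differed by -0.33 ± 0.29 without and 0.20 ± 0.28 with IFN-γ (adjusted p = 0.508 and 0.794), and 0.429% of genes were called in either direction in the comparison with IFN-γ. With the length trend removed the first of these differences was -0.03 (adjusted p = 0.927 by edgeR).

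**Figure D2:**
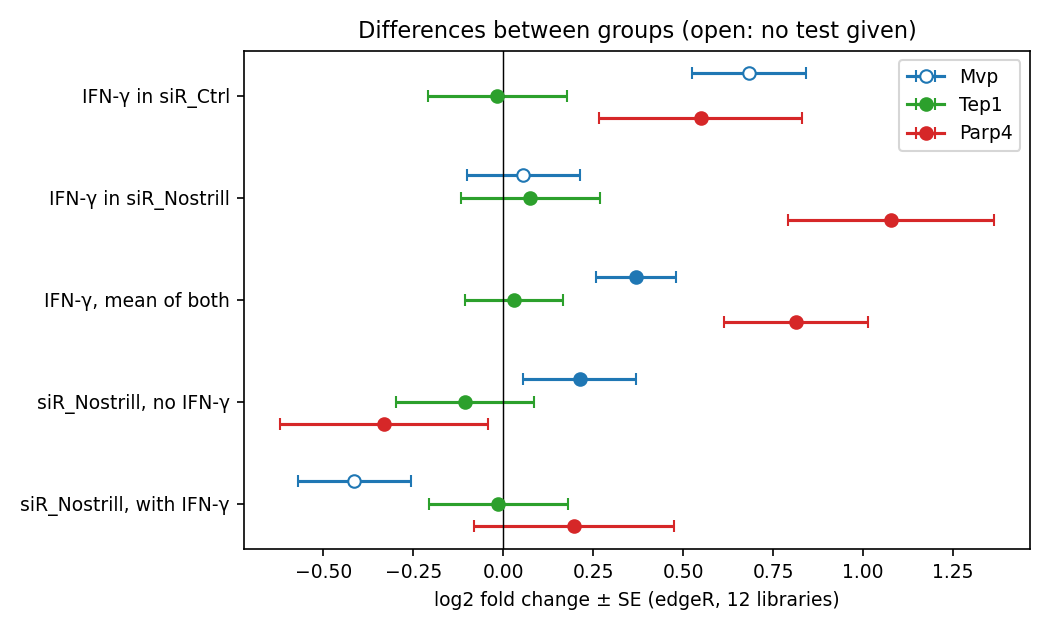
Log2 fold change ± SE (horizontal axis, edgeR over 12 libraries) of Mvp, Tep1 and Parp4 in 5 comparisons. Open points are values of Mvp for which no test is given. Parp4 lies at 0.55, 1.08 and 0.81 for the IFN-γ comparisons and Tep1 within 0.11 of 0 throughout.

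Libraries differed in the yield of long genes, and Tep1 and Parp4 are long. The trend of log2 CPM (counts scaled to the library total) over gene length, fitted in each library, stood at the length of Tep1 between -0.35 (replicate 2 of siR_Ctrl + IFN-γ) and 0.59 (replicate 1 of siR_Ctrl), at that of Parp4 between -0.29 and 0.47, and at that of Mvp between -0.02 and 0.02. Mvp was lowest in replicate 1 of siR_Ctrl (30.9 FPKM) and highest in replicate 2 of siR_Ctrl + IFN-γ (63.7 FPKM). These are the libraries at the ends of the trend for Tep1, and the covariate moved the values of Mvp as given above. What set these libraries apart, and whether it reached Mvp, was not tested. Replicate 1 of siR_Ctrl, with the strongest trend, had the highest Tep1 level of the 12 libraries and the highest Parp4 level of its group. The log2 CPM of Tep1 and Parp4 correlated over the 12 libraries at Pearson r = 0.66, and at -0.19 once the trend was removed. Among 1446 genes of like length to Parp4 (within a factor of 0.8 either way), the median log2 fold change with IFN-γ was -0.14 in siR_Ctrl and 0.20 in siR_Nostrill cells, against 0.55 and 1.08 for Parp4 itself, and 3.73% and 2.90% of them were higher than Parp4.

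**Figure D3:**
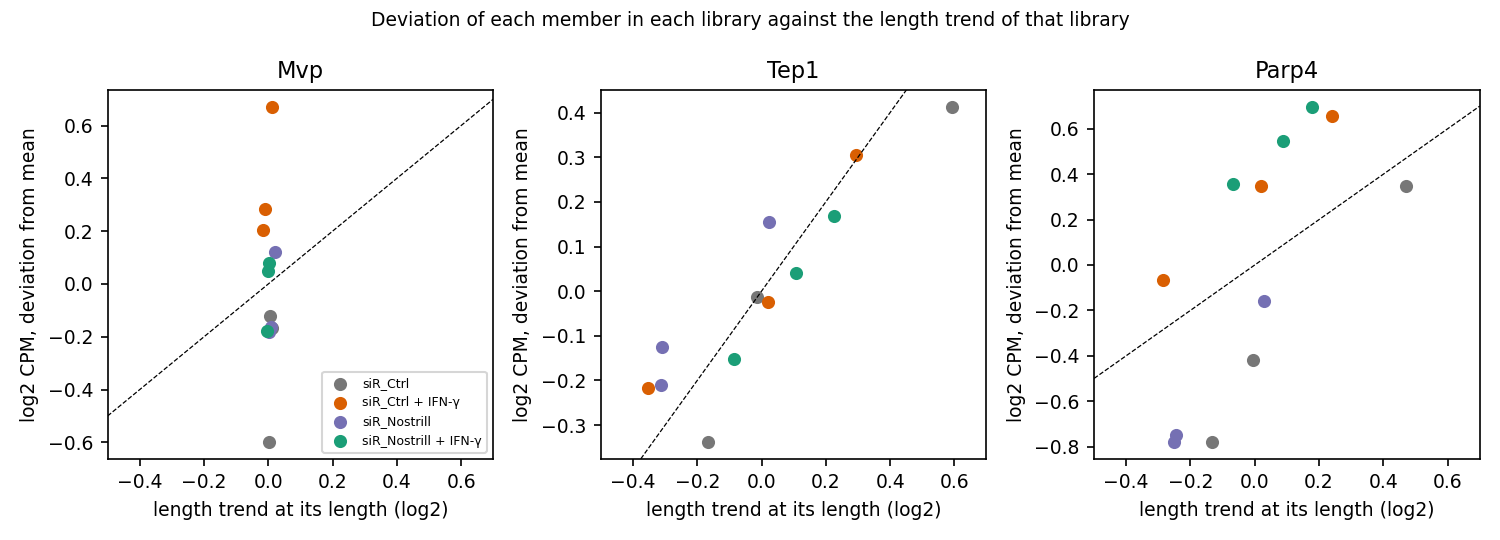
Deviation of each member's log2 CPM from its mean over 12 libraries (vertical axis) against the length trend of that library at the gene's length (horizontal axis, log2), coloured by group. The dashed line marks equality: Tep1 follows it, Mvp stands at a trend between -0.02 and 0.02, and the 6 IFN-γ libraries lie above the line for Parp4 while the 6 others lie below it.

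The ratio of 2 members within a library sets their lengths against the same library, and Tep1 and Parp4 are both long. The FPKM of Tep1 as a percentage of that of Parp4 was 175%, 228% and 222% in siR_Ctrl and 129%, 150% and 131% in siR_Ctrl + IFN-γ libraries. It was 249.3%, 259% and 208% in siR_Nostrill and 116%, 117% and 117% in siR_Nostrill + IFN-γ libraries. The 6 libraries with IFN-γ, at 116% to 150%, did not overlap with the 6 without, at 175% to 259%. The ratio was 0.569-fold with IFN-γ, a log2 difference of -0.81 in the mean of both siRNAs (exact permutation test within siRNA, two-sided, p = 0.005, the smallest that the 400 arrangements can give; adjusted p = 0.015 over 3 ratios). It kept its direction and its call without each of the 12 libraries in turn, with log2 differences between -0.87 and -0.78 and adjusted p between 0.015 and 0.03. With replicate numbers as a block the log2 difference was again -0.81, but the exact permutation adjusted p was 0.0938. The 64 sign flips of that test cannot give an unadjusted p under 0.0313.

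The ratios to Mvp did not pass the same test on FPKM. Tep1 was at 12.5% ± 5.66 (SD, n = 3) of Mvp in siR_Ctrl, 7.57% ± 2.50 in siR_Ctrl + IFN-γ, 9.64% ± 1.93 in siR_Nostrill and 9.79% ± 2.01 in siR_Nostrill + IFN-γ libraries, with a log2 difference of -0.33 (exact permutation adjusted p = 0.285). This difference was -0.16 without replicate 1 of siR_Ctrl and -0.20 without replicate 2 of siR_Ctrl + IFN-γ, and with the length trend removed it was -0.41 and passed (exact permutation adjusted p = 0.015). Parp4 was at 6.35% ± 3.91 of Mvp in siR_Ctrl, 5.65% ± 2.17 in siR_Ctrl + IFN-γ, 4.14% ± 1.34 in siR_Nostrill and 8.39% ± 1.78 in siR_Nostrill + IFN-γ libraries, with a log2 difference of 0.48 (exact permutation adjusted p = 0.285). On log2(FPKM + 1) this difference was 0.24. It ran from 0.33 (without replicate 2 of siR_Ctrl) to 0.72 (without replicate 1) when 1 library was left out, and passed in none of these fits. In the siR_Nostrill pair the Parp4 ratio did not overlap, at 3.05% to 5.64% without and 6.84% to 10.3% with IFN-γ. These ratios set a gene of middle length against long ones, and the length trend moves them.

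**Figure D4:**
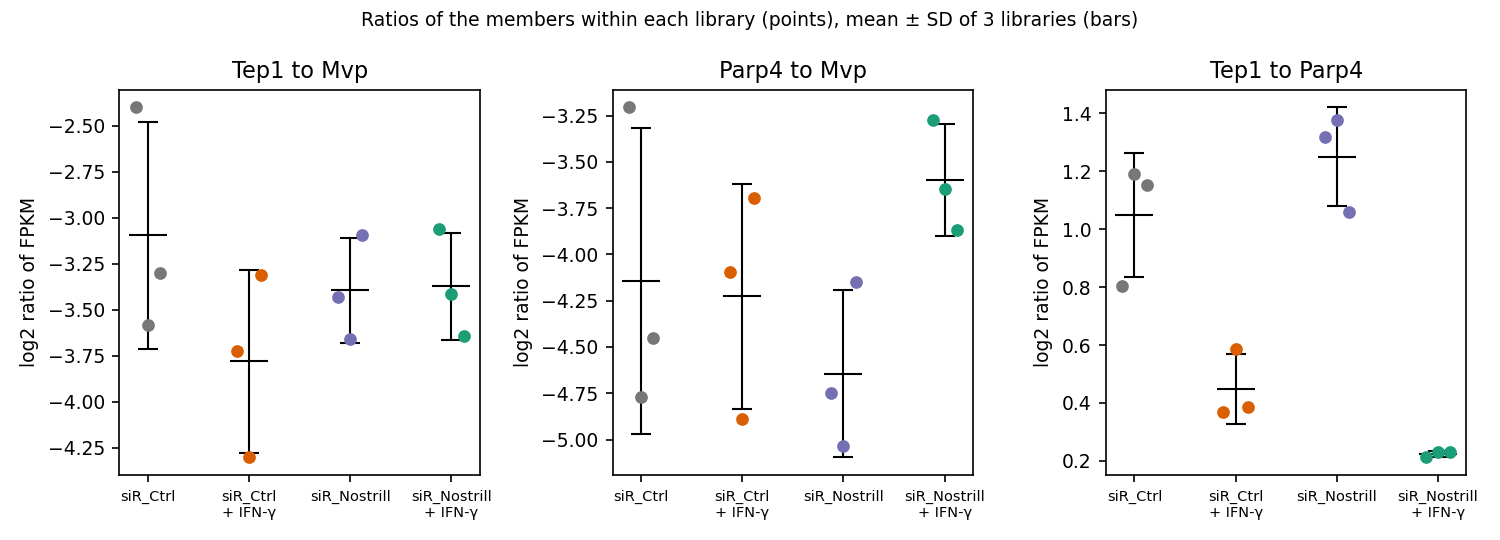
Log2 ratio of FPKM between pairs of members (vertical axes) in the 12 libraries, by group, with mean ± SD of 3. For Tep1 to Parp4 the IFN-γ libraries lie between 0.21 and 0.59 and the others between 0.80 and 1.38.

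Parp4 belongs to a family with several interferon-responsive members. Of 15 other PARP family genes, 7 rose with IFN-γ in siR_Ctrl cells and 8 in siR_Nostrill cells, none fell, and the remaining 8 and 7 did not pass edgeR's test, where 4.71% and 5.24% of all genes were called higher. Limma called 6 and 7, losing Zc3hav1 in siR_Ctrl cells and Parp8 in siR_Nostrill cells, and with the length trend removed Parp8 was called in siR_Ctrl cells (adjusted p = 0.0176) and not in siR_Nostrill cells (0.143). The median log2 fold change over the 15 was 0.29 and 0.65, beside -0.01 and 0.00 over all genes tested. Those with the smallest p were Parp9 (log2 fold change 3.06 in siR_Ctrl and 2.92 in siR_Nostrill cells), Parp12 (2.16 and 2.30), Parp14 (4.62 and 4.46) and Parp10 (2.44 and 2.19), which add single ADP-ribose units or, for Parp9, work with a partner ubiquitin ligase. The 1.46-fold and 2.11-fold differences of Parp4 were smaller than each of these. None of the 15 was called between siR_Nostrill and siR_Ctrl cells by edgeR on the counts, DESeq2 or limma, although 4 without and 1 with IFN-γ had an unadjusted p under 0.05 by edgeR. The fit with the length trend removed calls many more genes: 11.1% in either direction for IFN-γ in siR_Ctrl cells, 19% in siR_Nostrill cells, 20% for the mean, and 3.41% without and 12.9% with IFN-γ between the siRNAs. In it Parp14 was called higher with siR_Nostrill without IFN-γ (log2 fold change 0.73, adjusted p = 0.00107), and Parp1 lower (-0.23, adjusted p = 0.0217) and Parp12 higher (0.20, adjusted p = 0.0430) with it. Parp1 was also called lower with IFN-γ in siR_Nostrill cells (-0.25, adjusted p = 0.00895).

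Few known partners of the other members were called. Of all genes tested, edgeR called 5.45% in either direction for IFN-γ in siR_Ctrl cells, 6.78% in siR_Nostrill cells, 9.21% for the mean, 0.218% and 0.429% between the siRNAs and 0 for the interaction. At these shares a list of about 8 genes may hold none that is called. Of 8 genes of proteins reported to bind MVP or to handle vault RNA (Ptpn11, Cop1, Src, Ybx1, Ssb, Nsun2, Srsf2 and Sqstm1), none was called in any of the 6 contrasts by edgeR, while 0 to 2 had an unadjusted p under 0.05 in each. DESeq2 called Nsun2, an RNA methyltransferase, lower with IFN-γ in siR_Nostrill cells and in the mean, limma on FPKM called it lower in the mean, and edgeR with the length trend removed in siR_Nostrill cells (-0.33, adjusted p = 0.0442). Of 8 genes of the telomerase complex, the other known place of Tep1, 7 were tested and none was called, with 0 or 1 at an unadjusted p under 0.05 in each contrast. DESeq2 and limma on FPKM called none either, while limma on TPM called Nop10 and Pinx1 higher with IFN-γ in siR_Nostrill cells, and Nop10 higher with siR_Nostrill in treated cells. With the length trend removed, at the higher shares given above, edgeR also called Nop10 (0.61, adjusted p = 0.000623) and Pinx1 (0.52, adjusted p = 0.00181) higher and Nhp2 lower (-0.29, adjusted p = 0.0477) with IFN-γ in siR_Nostrill cells, and all 3 in the same directions in the mean. In treated cells it called Nop10 (0.86, adjusted p = 0.00041) and Pinx1 (0.34, adjusted p = 0.0333) higher with siR_Nostrill. Tert, the catalytic subunit, was below the count filter at 0.07 to 0.15 FPKM. Of 7 genes of the IFN-γ receptor, its kinases and genes downstream of them, 3 rose in siR_Ctrl cells (Irf1, Irf9 and Socs1) and 4 in siR_Nostrill cells, where Jak2 joined them, and none fell, beside 4.71% and 5.24% of all genes called higher. Limma on TPM did not call Jak2 in siR_Nostrill cells. Between the siRNAs, Irf9 rose with siR_Nostrill without IFN-γ (log2 fold change 0.58, adjusted p = 0.0357 by edgeR) and Ifngr2, a receptor chain, with IFN-γ (0.54, adjusted p = 0.0375). No limma fit called Irf9 in that comparison, and limma on TPM did not call Ifngr2. DESeq2 called Ifngr2 higher with siR_Nostrill both without and with IFN-γ, and Irf9 without it. By edgeR the value of Ifngr2 without IFN-γ was 0.39 (adjusted p = 0.150). Neither Irf9 nor Ifngr2 was called with only the compared groups fitted, where edgeR called 0 genes (1143 and 1563 at an unadjusted p under 0.05). EdgeR also called 0 genes without replicate 1 of siR_Ctrl, any siR_Nostrill replicate or replicate 2 of siR_Nostrill + IFN-γ in the comparison of Irf9 (792 to 2297 unadjusted), and without replicate 1 or 3 of siR_Nostrill + IFN-γ in that of Ifngr2 (1147 and 1590). With the length trend removed edgeR called both (adjusted p = 0.00476 and 0.00136), and called Jak2 higher with IFN-γ in siR_Ctrl cells too (0.47, adjusted p = 0.000121). In the mean IFN-γ effect, 2 of the 8 mesenchymal markers tested fell, Col3a1 by 0.41 and Pdgfrb by 0.36 on the log2 scale, where 2.4% of all genes were called lower. Vim had a log2 fold change of 0.23 (adjusted p = 0.0884 by edgeR) and was called higher by DESeq2 and with the length trend removed (0.26, adjusted p = 0.000195), while limma on FPKM or TPM called none of these markers in the mean. By siRNA, Vim's IFN-γ effect was 0.37 in siR_Ctrl (called by DESeq2) and 0.10 in siR_Nostrill cells (adjusted p = 0.0819 and 0.587 by edgeR). With the trend removed it was 0.31 and 0.21 (adjusted p = 0.00153 and 0.0148 by edgeR). The fit with the trend removed also called Pdgfra lower in the mean (-0.37, adjusted p = 0.000723) and Vim lower with siR_Nostrill in treated cells (-0.22, adjusted p = 0.0205). Cd34 had a log2 difference of 0.45 between siR_Nostrill and siR_Ctrl cells with IFN-γ (adjusted p = 0.0651 by edgeR), and was called higher there by DESeq2, by limma on FPKM with the filter and with the trend removed (adjusted p = 0.00376). Their part in the results above was not tested.

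The genes whose log2 CPM was most like that of each member over the 12 libraries were found among 10498 genes with a mean of at least 1 FPKM. For Mvp they were Ilk (Pearson r = 0.98), Yars (0.97), Dbnl (0.96), Creb3 (0.95) and Gmppb (0.94). For Tep1 they were Agap1 (0.97), Dab2ip (0.97), Zfp526 (0.96), Ripor1 (0.96) and Dock11 (0.96), and for Parp4 Rbfox2 (0.99), Prune2 (0.98), Sh3pxd2b (0.98), Amer1 (0.98) and Dcp2 (0.98). The effective lengths of those of Parp4 ran from 6196 to 12434 nt. With the length trend removed, 1 of the 5 of Mvp (Yars, 0.98) and none of those of Tep1 or Parp4 stayed among the first 5. The nearest was then Tbc1d10b (0.90) for Tep1, and those of Parp4 included Susd6 (0.98), Clic4 (0.98), Irf2 (0.98), an interferon regulatory factor, and Net1 (0.98). These are descriptions over libraries that share their groups and length trends.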

How the data were processed

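RNA of 12 IEC4.1 libraries in 4 labelled groups of 3 had been sequenced on a DNBSEQ platform. By the study's methods reads were filtered with SOAPnuke (v1.5.2) and aligned with HISAT2 (v2.0.4) and Bowtie2 (v2.2.5); the build in the submitters' notes is GRCm38.p6, and the tool for counting was not found in the sources used. The authors deposited, for each of 15002 genes, an estimated count (not normalized), an FPKM and a TPM. Here the counts, whole for 90.6% to 91.6% of genes, were rounded; edgeR 4.0.16 then tested them (quasi-likelihood F-test after TMM, default filter, all 12 libraries, Benjamini-Hochberg over 11900 genes, threshold 0.05) in R 4.3.3. Intervals are approximate, from the SE. Replicates differed by more than sampling noise (chi-square per degree of freedom 6.72 to 101), so each was 1 sample. The study describes biological triplicates, while the labels do not say whether cultures were separate, and p-values then measure the spread between these samples. RNA came from whole cultures, so a change in each cell and one in some cells cannot be told apart.

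Members and lists were chosen with earlier results of these data known. By rule, named genes were the 3 members, the 5 genes of highest Pearson r (log2 CPM, prior count 2) with each, and list genes called by edgeR, at most 4 per list by smallest p. Further list genes are named outside this rule. Among them are the vault partners, genes whose call differed between fits, markers of cell types and Tert. Some genes of these sets are not reported here. No test was given for Mvp in the contrast that chose it, in the interaction, or for IFN-γ within each siRNA, where tests had been planned. Its mean IFN-γ effect and its ratios were tested: they use the same libraries, but the difference that chose it cancels in them. Ratios of FPKM were tested by exact permutation. Alternatives were DESeq2 1.42.0, its size factors in edgeR, no filter or a minimum mean of 5 CPM, fits on the compared groups alone, a replicate block, each library left out, limma 3.58.1 on log2(FPKM + 1), with a minimum mean of 0.5 FPKM and for all genes, and on log2(FPKM + 0.1), removal of the length trend (lowess, span 0.3), and the ratio of TPM to FPKM as covariate. Limma on log2(TPM + 1) was added after seeing the data. The scripts were tested on simulated data.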

Additional observations from a re-analysis of the deposited data

How the results depend on the processing

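Depth limits Parp4 most, with 157 to 466 reads a library. Mvp's mean IFN-γ effect (log2 0.37) passed the threshold in 9 of 12 alternatives: DESeq2 (0.36), a replicate block (0.37), limma on log2(FPKM + 1), with the filter or for all genes (0.34), on log2(FPKM + 0.1) (0.35) or on log2(TPM + 1) (0.37), the length trend removed without (0.38) or with the block (0.38), and the covariate (0.41). Its interaction moved from -0.63 to -0.30 with limma on log2(TPM + 1) and to -0.30 with the covariate. Parp4's IFN-γ effect in siR_Ctrl cells passed with the length trend removed (0.70), also with the block (0.70), and with the covariate (0.83). In siR_Nostrill cells it missed by limma on log2(FPKM + 1), with the filter or for all genes (0.79), on log2(FPKM + 0.1) (1.08) and on log2(TPM + 1) (0.98). Its mean effect missed by limma on log2(FPKM + 1) for all genes (0.58) and on log2(TPM + 1) (0.65). The cause was not tested. With the covariate, its values for siR_Nostrill without IFN-γ (0.15) and the interaction (-0.13) turned direction, uncalled.

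Leaving out 1 library, Parp4's effect in siR_Nostrill cells ran from 0.97 to 1.31 and kept its call in 5 of 12. By edgeR's adjusted p it missed without siR_Ctrl replicate 3 (0.0638), siR_Ctrl + IFN-γ replicate 1 (0.0730), siR_Nostrill replicates 1 (0.155) and 2 (0.193), or siR_Nostrill + IFN-γ replicates 1 (0.154), 2 (0.125) and 3 (0.0770). Its mean effect ran from 0.70 to 1.01 and also kept its call in 5, missing without siR_Ctrl replicate 3 (0.0686), siR_Ctrl + IFN-γ replicates 1 (0.0536) and 3 (0.0602), siR_Nostrill replicates 1 (0.0690) and 2 (0.0715), or siR_Nostrill + IFN-γ replicates 1 (0.0635) and 2 (0.0563). Its effect of siR_Nostrill without IFN-γ ran from -0.56 to 0.059, turning without siR_Ctrl replicate 1. Its interaction ran from 0.14 (without siR_Ctrl replicate 1) to 0.76 (without siR_Nostrill replicate 3), and its effect of siR_Nostrill with IFN-γ from 0.023 to 0.39. That of Mvp without IFN-γ ran from 0.076 to 0.30.

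Tep1's uncalled values turned direction. With the length trend removed, without and with the block, and with the covariate, they were 0.15, 0.15 and 0.16 for IFN-γ in siR_Ctrl cells, -0.20, -0.20 and -0.18 in siR_Nostrill cells, -0.028, -0.028 and -0.0099 for the mean, 0.25, 0.25 and 0.20 for siR_Nostrill without IFN-γ, and -0.35, -0.35 and -0.34 for the interaction. For siR_Nostrill with IFN-γ, limma gave 0.049 on log2(FPKM + 1), with the filter or for all genes, 0.062 on log2(FPKM + 0.1) and 0.12 on log2(TPM + 1). Its log2 ratio of siR_Ctrl over siR_Nostrill group means, 0.14, became -0.25 with the trend removed. Without 1 library its 6 values ran from -0.17 to 0.20, -0.0014 to 0.19, -0.050 to 0.14, -0.26 to 0.11, -0.13 to 0.14 (siR_Nostrill with IFN-γ) and -0.13 to 0.25.

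The Tep1 to Mvp ratio passed with the length trend removed (-0.41, exact permutation adjusted p = 0.015). Replicate numbers did not pair the samples (correlations of same-numbered deviations from -0.49 to 0.73). Under the replicate block the Tep1 to Parp4 ratio kept its log2 difference of -0.81 but its adjusted p was 0.0938, since 64 sign flips cannot give a p under 0.0313. Pattern neighbours shared with the length trend removed were 1, 0 and 0 of 5. The other results of the members kept their direction, and where a test was given their side of the threshold, under every alternative run.

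The share of genes called depends more on the processing. For IFN-γ in siR_Ctrl cells 649 genes were called, against 341 with only the groups compared, 329 by limma on log2(TPM + 1), 1321 with the length trend removed (1433 with the block) and 2055 with the covariate. In siR_Nostrill cells the count was 807, against 1330 by DESeq2, 1997 with only the groups compared, 2256 with the trend removed (2663 with the block) and 2425 with the covariate, and from 491 (without siR_Nostrill replicate 2) to 1138 (without siR_Ctrl replicate 1) when 1 library was left out. Without siR_Nostrill + IFN-γ replicate 2 it was 500. For the mean it was 1096, against 693 by limma on log2(TPM + 1), 2376 with the trend removed (2607 with the block) and 3611 with the covariate. For siR_Nostrill without IFN-γ it was 26, against 257 by DESeq2, 0 with only the groups compared (1143 unadjusted), 17 by limma for all genes, 8 on log2(TPM + 1), 406 with the trend removed (556 with the block) and 593 with the covariate. It ran from 0 (without siR_Ctrl replicate 1, any siR_Nostrill replicate or siR_Nostrill + IFN-γ replicate 2; 792 to 2297 unadjusted) to 37 (without siR_Ctrl + IFN-γ replicate 2) when 1 library was left out. With IFN-γ it was 51, against 601 by DESeq2, 30 with no filter, 105 at a mean of 5 CPM, 0 with only the groups compared (1563 unadjusted), 32 with the block, 135, 114 and 118 by limma on FPKM, 1539 with the trend removed (1894 with the block) and 2738 with the covariate. It ran from 0 (without siR_Nostrill + IFN-γ replicate 1 or 3; 1147 and 1590 unadjusted) to 72 (without siR_Ctrl replicate 1). The interaction called 0 genes by edgeR and DESeq2 (1277 and 1485 at an unadjusted p under 0.05), 248 with the trend removed and the block, and 1 with the covariate.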
